A study of Mus musculus with 24 samples.

Results

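The genes described here are 36 genes of the cytosolic heat shock and chaperonin systems, chosen by symbol from a list of names and found for all 36 in both expression tables, which hold 24537 genes each. They are 3 Hsp70 genes, 3 Hsp110 genes, 2 Hsp90 genes, 7 genes of J-domain proteins, 3 small heat shock protein genes, 2 BAG genes, 2 heat shock factor genes, 6 co-chaperone genes and the 8 subunit genes of the chaperonin TRiC. Messenger RNA was sequenced from bone marrow-derived macrophages, which were grown with M-CSF from the leg bones of 8-week-old female C57BL/6J mice. The treatments were LPS with 4-OHE1, 4-OHE1 alone, LPS alone, or vehicle as control, each for 6 h or 24 h, with 3 libraries in each of the 8 groups. LPS, lipopolysaccharide, is a bacterial cell wall component that macrophages sense, and 4-OHE1 is 4-hydroxyestrone, a catechol metabolite of the estrogen estrone that was dissolved in ethanol. LPS is labelled as 100 ng/mL and 4-OHE1 as 5 mM in the medium, yet each stock is labelled with the same strength and was diluted, so the doses are uncertain. The labels tie no library to its own animal or culture, so each p-value reflects variation among 3 libraries per group that could be purely technical.

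Proteins of the Hsp70 family bind unfolded stretches of other proteins and release them in cycles driven by ATP. J-domain proteins bring the clients and start each cycle, while Hsp110 and BAG proteins exchange the nucleotide. Hsp90 takes over some clients for late folding steps with its own co-chaperones, and TRiC, a double ring of 8 related subunits, folds actin, tubulin and other proteins in its cavity. When unfolded proteins accumulate, as after heat or after attack on proteins by reactive chemicals, heat shock factor 1 (HSF1) binds repeats of the element nGAAn in promoters and raises transcription of the inducible chaperones.

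The libraries held 8127160 to 13339200 reads, with 83.0% to 87.2% of them counted in genes. The depths of the LPS+4-OHE1 libraries were estimated from the value of 1 read. For a 2 kb transcript a single read added 0.0375 to 0.0615 FPKM. Levels are given as scaled FPKM, meaning fragments per transcript length and library depth divided by 1 factor per library so that most genes are level between libraries. This choice matters for LPS: on FPKM as deposited the median of all genes tested lay 0.61 lower on the log2 scale with LPS than in the control at 6 h. The 7 macrophage markers summed to between 5164 and 16621 scaled FPKM in every library, with the highest sums in the LPS libraries at 24 h. The summed neutrophil markers reached 4.36 to 7.43 scaled FPKM with LPS at 24 h against 0.0343 to 0.230 in the control. That sum was nearly all Camp, which reached 7.39 at 24 h, while no other neutrophil marker exceeded 0.230 in any library of that time. The summed dendritic cell markers were at 1.99 to 4.06 with LPS+4-OHE1 at 6 h against 0.0609 to 0.142 in the control. Most of that sum was Xcr1, which reached 3.92 at 6 h, while Zbtb46 reached at most 0.353 and Flt3 at most 0.0578. The summed stromal markers reached at most 3.33 in any library. No summed list of T cell, B cell or erythroid markers exceeded 0.556 scaled FPKM. These are whole cultures, so fewer cells of a type and less RNA per cell cannot be told apart. The part of cell composition in the results was not tested.

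Tested at 6 h were 33 of the 36 genes, those that reached 1 scaled FPKM in at least 3 of the 12 libraries, and 34 were tested at 24 h. Dnaja4 and Hspb8 stayed below that level at both times and Hspb1 at 6 h. Hspa1a, Hspa1b and Cryab at 6 h, and the same genes with Hspb1 at 24 h, were under 1 in every control library, so they passed only through other groups. They are all counted below among the genes that rose with 4-OHE1, so their part in those counts is not independent of the filter. At 6 h, 28 of the 33 genes rose with 4-OHE1 and 0 fell, against 29.4% and 30.8% of all 11093 genes tested (limma, Benjamini-Hochberg adjusted p under 0.05), and the unadjusted p under 0.05 gave the same 28 and 0. Their median log2 difference was 0.61, against -0.03 for all genes. On FPKM as deposited, 19 rose and 2 fell, against 20.9% and 44% of all genes on that scale, while limma-voom on the recovered reads again found 0 lower. At 24 h, 17 of 34 rose and 2 fell with 4-OHE1, against 25.6% and 26.8% of all 11074 genes tested (19 and 2 on FPKM as deposited, against 29.9% and 23.1%).

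With LPS against control, 23 of 33 genes rose and 4 fell at 6 h, where 36.5% and 34.7% of all genes did. On FPKM as deposited 7 were higher and 16 lower, where 16.1% of all genes were higher and 68.1% lower, and 7 rose and 4 fell under both. At 24 h 22 of 34 rose and 3 fell with LPS, against 35.3% and 33.8% of all genes, and 12 rose and 7 fell on FPKM as deposited, against 19.9% and 53.5%. When 4-OHE1 was added to LPS, 18 genes were higher and 8 lower than with LPS alone at 6 h, against 32.4% and 34.8% of all genes (23 and 2 on FPKM as deposited, against 42.7% and 25.3%). The same comparison at 24 h gave 15 higher and 9 lower, against 24.1% and 25.4% of all genes (18 and 2 on FPKM as deposited, against 39.5% and 14.9%). These comparisons share libraries and are not independent of each other.

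**Figure D1:**
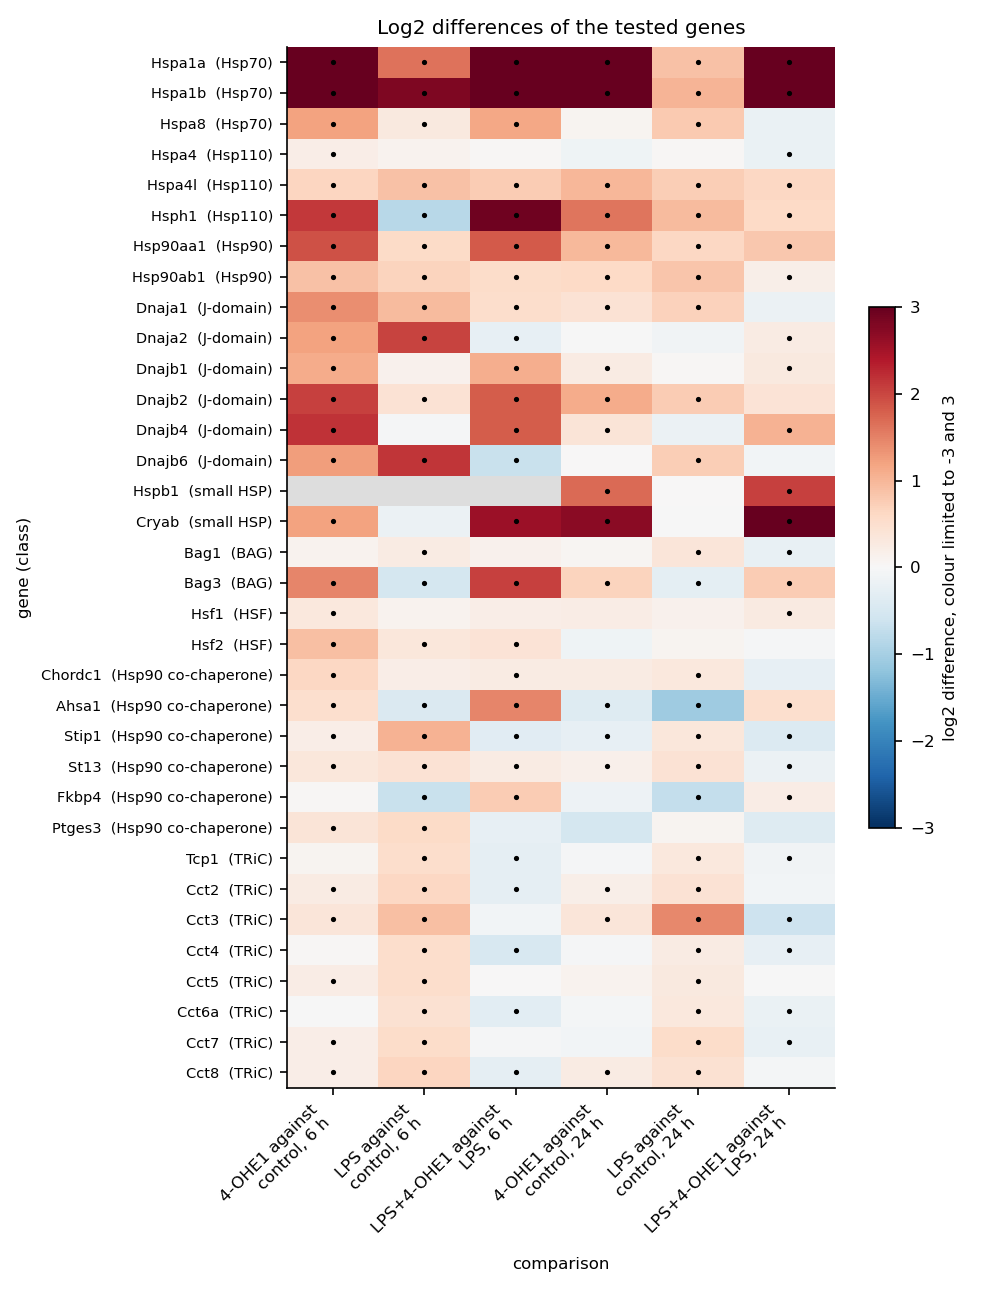
Log2 differences of scaled FPKM (colour, limited to -3 and 3) for the 34 genes tested at one or both times, in rows by class, in 6 comparisons, in columns. Dots mark genes past the adjusted threshold and grey marks genes not tested; Hspa1a and Hspa1b are dark red in all 4 columns with 4-OHE1, and the TRiC rows are pale with 4-OHE1.

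The inducible Hsp70 genes had the largest rise of any gene tested with 4-OHE1. Hspa1a and Hspa1b, which encode nearly the same stress-induced Hsp70, ranked 1 and 2 of all genes by log2 difference from the control at both times. At 6 h Hspa1a was at 115, 133 and 123 scaled FPKM with LPS+4-OHE1 and at 60.2, 70.7 and 75.3 with 4-OHE1. It was at 2.51, 2.32 and 2.07 with LPS and at 0.366, 0.233 and 0.645 in the control. The 4 groups did not overlap, and the control values rest on 8 to 19 reads per library. At 24 h Hspa1a was at 46.7, 63.4 and 97.2 with LPS+4-OHE1 and at 78.6, 115 and 72.7 with 4-OHE1. It was at 0.726, 0.948 and 0.806 with LPS and at 0.207, 0.212 and 0.232 in the control. The groups with 4-OHE1 overlapped each other at 24 h and lay far above the others.

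Hspa1b followed the same order. At 6 h it was at 97.8, 100.3 and 98.6 scaled FPKM with LPS+4-OHE1, at 50.9, 57.8 and 58.3 with 4-OHE1, at 5.84, 5.13 and 5.77 with LPS, and at 0.410, 0.492 and 0.237 in the control. After 24 h it was at 42.8, 50.1 and 76.5 with LPS+4-OHE1, at 66.8, 92.1 and 63.4 with 4-OHE1, at 1.00, 0.943 and 1.20 with LPS, and at 0.206, 0.211 and 0.395 in the control. The LPS libraries were above every control library at both times. The 2 genes share 82.3% of their 50-base windows in the coding sequence and 58.8% over the whole transcript, so reads can be split between them, and their sum is the safer measure. The counting strand is not given in the sources used here, and an exon of Gm20481 on the opposite strand overlaps Hspa1a by 377 bases.

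Together Hspa1a and Hspa1b averaged 124 ± 11.8 scaled FPKM with 4-OHE1 and 0.794 ± 0.0800 in the control at 6 h (SD, n = 3 each), a ratio of means of 157. At 24 h they averaged 163 ± 38.6 with 4-OHE1 and 0.488 ± 0.120 in the control (SD, n = 3 each), a ratio of 334. The fitted log2 differences of the sum were 6.59 ± 0.08 at 6 h (SE; limma, adjusted p = 5.6e-14) and 7.35 ± 0.21 at 24 h (adjusted p = 2.0e-10), which are understated by the pseudocount of 0.5. LPS alone raised the sum to 7.88 ± 0.452 at 6 h and 1.88 ± 0.141 at 24 h (SD, n = 3), log2 differences from the control of 2.70 ± 0.08 and 1.27 ± 0.21 (SE). Adding 4-OHE1 to LPS raised it by 4.74 ± 0.08 at 6 h and by 5.68 ± 0.21 at 24 h (SE). LPS+4-OHE1 against 4-OHE1 gave 0.84 ± 0.08 at 6 h (adjusted p = 4.1e-06). At 24 h the same difference was -0.40 ± 0.21 and missed the threshold (limma, adjusted p = 0.14), but it was -0.62 on FPKM as deposited (adjusted p = 0.0268) and -0.66 without LPS+4-OHE1 replicate 3 (adjusted p = 0.00926).

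The effects of LPS and 4-OHE1 on the sum did not add up on the log2 scale. The interaction, the effect of 4-OHE1 with LPS minus its effect without LPS, was -1.85 ± 0.11 at 6 h (SE; limma, adjusted p = 4.5e-08) and -1.67 ± 0.30 at 24 h (adjusted p = 0.00058). Between the copies the LPS response was uneven at 6 h. The ratio of Hspa1a to Hspa1b was 1.25 ± 0.0763 with LPS+4-OHE1, 1.23 ± 0.0558 with 4-OHE1 and 0.414 ± 0.0492 with LPS at 6 h (SD, n = 3). In the control it ranged between 0.473 and 2.73 on few reads. After 24 h the ratio was 0.799 ± 0.180 with LPS and 0.865 ± 0.241 in the control, which overlapped, and the ratios of LPS to control means were 3.81 for Hspa1a and 3.88 for Hspa1b. Both rises passed the threshold in the main fit. In limma-voom on the recovered reads neither did (adjusted p = 0.156 for Hspa1a and 0.0545 for Hspa1b).

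**Figure D2:**
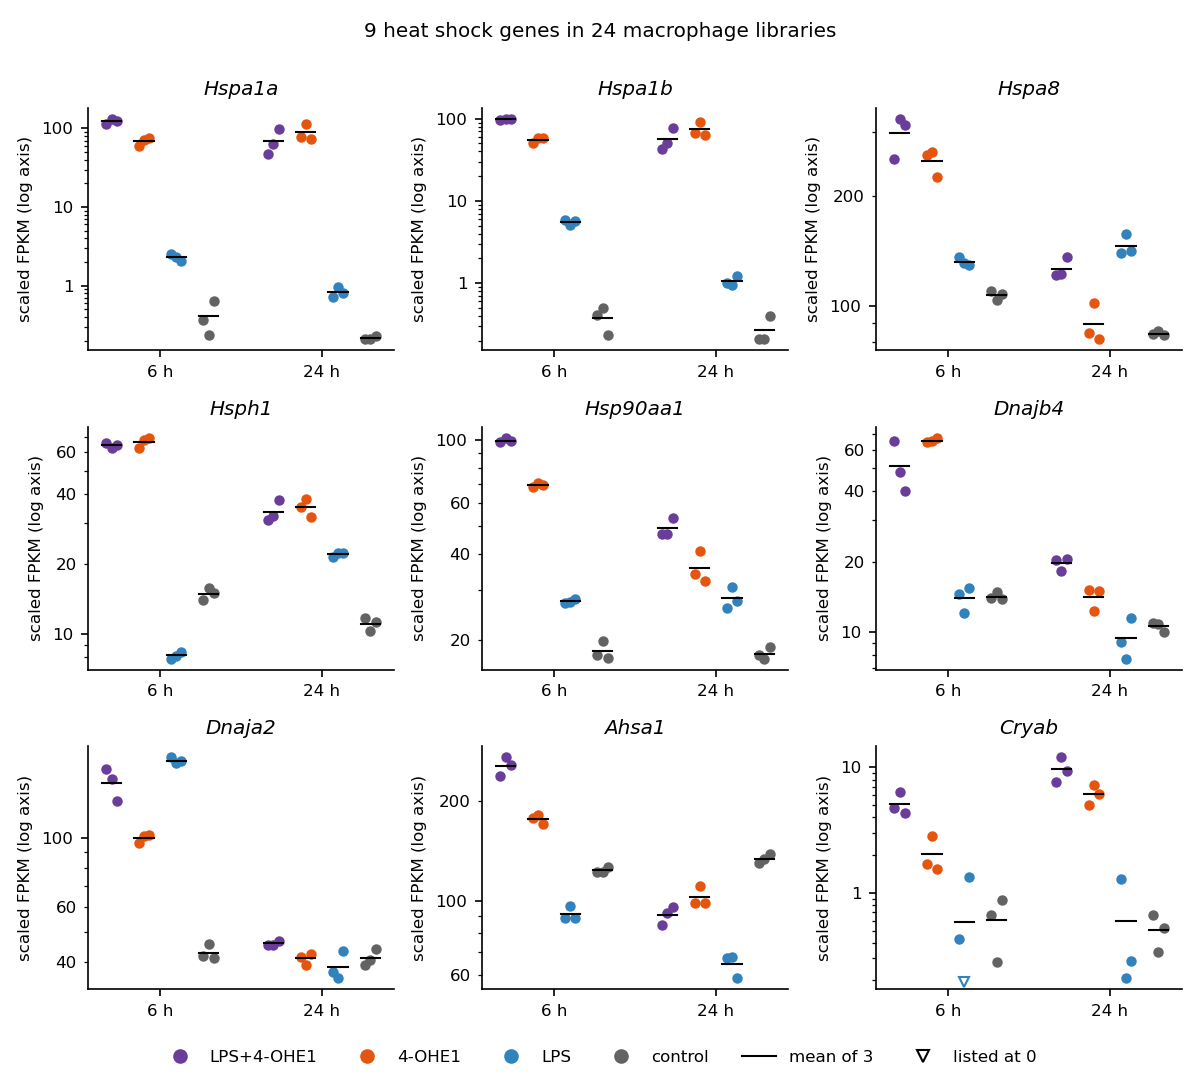
Scaled FPKM (log axes) of 9 genes in each of the 24 libraries, by treatment and time; points are libraries, bars are means of 3, and the open triangle marks a library at 0. Hspa1a and Hspa1b stand above 40 in all libraries with 4-OHE1 and below 6 in all others, whereas Hsph1 is lower with LPS than in the control at 6 h and higher at 24 h.

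Hspa8, the constitutive Hsp70, rose less and for a shorter time. At 6 h it was at 253, 326 and 313 scaled FPKM with LPS+4-OHE1, at 259, 265 and 226 with 4-OHE1, at 136, 131 and 130 with LPS, and at 110, 104 and 108 in the control. By 24 h the gene was at 122, 122 and 136 with LPS+4-OHE1, at 84.7, 102 and 81.3 with 4-OHE1, at 140, 158 and 142 with LPS, and at 84.0, 85.4 and 83.5 in the control. The 6 h libraries with 4-OHE1 were the highest, and at 24 h the LPS libraries lay above all others of that time on scaled FPKM. At 24 h, however, LPS+4-OHE1 minus LPS was -0.21 on the log2 scale, which missed the threshold, and -0.014 on FPKM as deposited. The difference of 4-OHE1 from the control was 1.21 ± 0.09 at 6 h and 0.08 ± 0.08 at 24 h on the log2 scale (SE), the second of which missed the threshold (limma, adjusted p = 0.45). LPS raised Hspa8 by 0.79 ± 0.08 at 24 h, and its 6 h difference of 0.30 was -0.38 on FPKM as deposited.

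Ratios within a library do not depend on the scaling. Summed Hspa1a and Hspa1b were 0.756 ± 0.0743 of Hspa8 with LPS+4-OHE1, 0.502 ± 0.0827 with 4-OHE1, 0.0594 ± 0.00233 with LPS and 0.00739 ± 0.000673 in the control at 6 h (SD, n = 3 each). By 24 h the ratio was 0.980 ± 0.274 with LPS+4-OHE1, 1.80 ± 0.190 with 4-OHE1, 0.0128 ± 0.00116 with LPS and 0.00580 ± 0.00148 in the control. So in every 4-OHE1 library at 24 h the inducible genes exceeded the constitutive one, per length. No groups overlapped at either time. An exact permutation test of 3 against 3 libraries cannot give a two-sided p below 0.1, so none is given for the ratios.

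**Figure D3:**
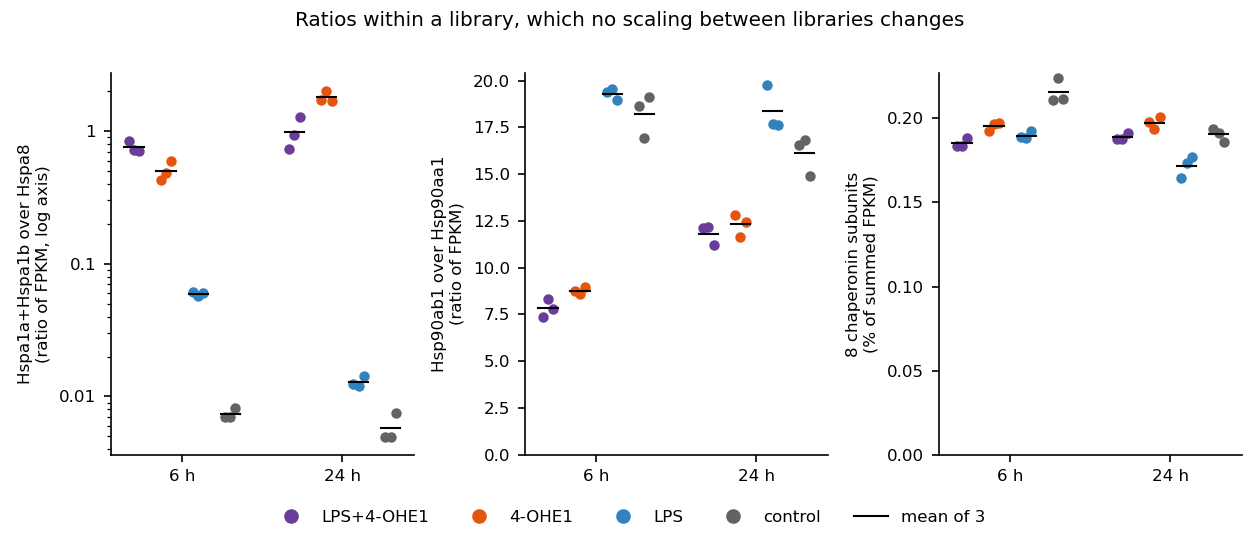
Ratios of FPKM within each library, and the share of the summed FPKM taken by the 8 TRiC genes, by treatment and time (points are libraries, bars are means of 3, first panel on a log axis). Hspa1a plus Hspa1b over Hspa8 is at or below 0.0613 in every library without 4-OHE1 and at or above 0.429 in every library with it.

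Promoters of 5 genes that rose with 4-OHE1 at 6 h are shown because inducible chaperone promoters are known for HSF1 elements. The genes and the stretches were picked to show a match, and most of the promoters searched held none. They are 120-base stretches upstream of the transcription start, ending 39 bases before it for Hspa1a and Hspa1b and 1 base before it for the others, from RefSeq on GRCm38.p6, on the strand of the gene, and 29 of the 36 genes had a promoter in the RefSeq table. Capitals mark matches to 2 adjoining units of the element, GAANNTTC or TTCNNGAA, or to 3 units, GAANNTTCNNGAA or TTCNNGAANNTTC. These motifs cover both strands, and the 3-unit form contains the 2-unit form. Hspa1a lies at chr17:34972195-34972314 (minus strand), Hspa1b at chr17:34959277-34959396 (minus), Hsph1 at chr5:149636337-149636456 (minus), Dnajb4 at chr3:152193846-152193965 (minus) and Dnajb6 at chr5:29735778-29735897 (plus).
Hspa1a: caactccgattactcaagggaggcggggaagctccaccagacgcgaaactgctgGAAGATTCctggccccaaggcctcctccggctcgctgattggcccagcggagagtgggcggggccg
Hspa1b: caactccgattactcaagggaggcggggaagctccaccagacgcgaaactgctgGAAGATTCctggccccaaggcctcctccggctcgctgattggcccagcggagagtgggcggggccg
Hsph1: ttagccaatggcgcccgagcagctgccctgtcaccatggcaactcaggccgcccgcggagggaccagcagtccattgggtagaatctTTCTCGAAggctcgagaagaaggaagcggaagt
Dnajb4: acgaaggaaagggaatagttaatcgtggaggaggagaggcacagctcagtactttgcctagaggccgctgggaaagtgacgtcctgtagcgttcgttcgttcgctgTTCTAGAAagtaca
Dnajb6: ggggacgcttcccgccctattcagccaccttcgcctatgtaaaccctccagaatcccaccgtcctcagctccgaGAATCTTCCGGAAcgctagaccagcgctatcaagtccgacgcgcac

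The stretches of Hspa1a and Hspa1b are the same, and over the 250 bases before the start the pair is identical at 247. In those 250 bases a 2-unit match was found in 11 of 29 genes (37.9%), against 14.55% of all 27025 genes with a promoter. A 3-unit match was found in Dnajb6 alone of the 29, against 0.514% of all genes. Apart from the promoters shown, those of Dnaja1, Dnaja4, Hspb1, Fkbp4, Cct2 and Cct5 also held a 2-unit match. The rest of the 29, among them Bag3, Dnaja2, Dnajb1, Dnajb2 and Hsf2, held none. Hspa8, Hsp90aa1, Hsp90ab1, Cryab, Hsf1, St13 and Cct4 were not among the 29, so their promoters were not searched. A match is a string of letters and was not tested for binding.

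Hsph1, the Hsp110 that exchanges nucleotide on Hsp70, moved in opposite directions with LPS at the 2 times. At 6 h it was at 66.0, 62.9 and 64.5 scaled FPKM with LPS+4-OHE1, at 62.5, 68.1 and 69.2 with 4-OHE1, at 7.83, 8.08 and 8.37 with LPS, and at 14, 15.7 and 15.0 in the control. After 24 h the gene stood at 30.9, 32.0 and 37.5 with LPS+4-OHE1, at 35.0, 38.0 and 31.8 with 4-OHE1, at 21.3, 22.2 and 22.3 with LPS, and at 11.7, 10.4 and 11.3 in the control. LPS libraries lay below all control libraries at 6 h and above them at 24 h, while the libraries with 4-OHE1 were alike with and without LPS. The LPS difference was -0.84 ± 0.06 at 6 h and 0.95 ± 0.08 at 24 h (log2, SE), and the difference between the times was 1.79 ± 0.10 (limma, adjusted p = 8.8e-12). With 4-OHE1, Hsph1 rose by 2.12 ± 0.06 at 6 h and by 1.61 ± 0.08 at 24 h. LPS+4-OHE1 against 4-OHE1 was -0.05 ± 0.06 at 6 h (adjusted p = 0.59), although -0.32 on FPKM as deposited (adjusted p = 0.000902), and -0.06 ± 0.08 at 24 h (adjusted p = 0.58), although -0.28 as deposited (adjusted p = 0.017).

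Hspa4l, a further Hsp110, was raised by each agent. It was at 36, 26.3 and 20.2 scaled FPKM with LPS+4-OHE1, at 13.1, 12.7 and 13.5 with 4-OHE1, at 14.7, 15.4 and 16.6 with LPS, and at 8.21 in each control library at 6 h. LPS+4-OHE1 exceeded both single treatments in every library. The differences from the control at 6 h were 0.64 ± 0.15 for 4-OHE1 and 0.88 ± 0.15 for LPS (log2, SE), though the LPS difference was 0.23 on FPKM as deposited and missed the threshold (limma, adjusted p = 0.13), and LPS+4-OHE1 exceeded 4-OHE1 by 1.00 ± 0.15. The third Hsp110, Hspa4, lay between 41.4 and 61.3 scaled FPKM in every library. With 4-OHE1 at 6 h it rose by 0.21 (log2), but by 0.018 on FPKM as deposited, which missed the threshold. LPS+4-OHE1 minus LPS was -0.20 at 24 h, a fall, but -0.0055 on FPKM as deposited, which missed the threshold too.

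Of the Hsp90 pair, Hsp90aa1 encodes the inducible isoform and Hsp90ab1 the constitutive one. Hsp90aa1 was at 98.1, 102 and 98.9 scaled FPKM with LPS+4-OHE1, at 68.5, 70.7 and 69.4 with 4-OHE1, at 26.8, 27.2 and 27.9 with LPS, and at 17.7, 19.8 and 17.3 in the control at 6 h. At 24 h the gene was at 47.0, 47.0 and 53.3 with LPS+4-OHE1, at 34.0, 40.8 and 32.0 with 4-OHE1, at 25.9, 30.6 and 27.4 with LPS, and at 17.7, 17.2 and 18.8 in the control. The order of the groups was the same at both times, with no overlap. 4-OHE1 raised it by 1.90 ± 0.06 at 6 h and 0.97 ± 0.09 at 24 h, and LPS by 0.57 ± 0.06 and 0.62 ± 0.09 (log2, SE), though the LPS difference at 6 h was -0.10 on FPKM as deposited. Its interaction of LPS and 4-OHE1 at 6 h was -0.06 ± 0.08 (limma, adjusted p = 0.58) but 0.34 on FPKM as deposited (adjusted p = 0.0029).

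Hsp90ab1 was the most abundant of the 36 genes in all 8 groups, at 723, 843 and 768 scaled FPKM with LPS+4-OHE1, 599.7, 606 and 622 with 4-OHE1, 520.4, 532 and 529 with LPS, and 331, 335 and 330.0 in the control at 6 h. It rose by 0.88 ± 0.05 with 4-OHE1 and by 0.67 ± 0.05 with LPS at 6 h (log2, SE), the second of which was -0.02 on FPKM as deposited. Hsp90ab1 was 7.82 ± 0.465 times Hsp90aa1 with LPS+4-OHE1, 8.76 ± 0.195 times with 4-OHE1, 19.3 ± 0.288 times with LPS and 18.2 ± 1.14 times in the control at 6 h (SD, n = 3 each). At 24 h the ratios were 11.8 ± 0.538, 12.3 ± 0.603, 18.4 ± 1.22 and 16.1 ± 1.05 in the same order of groups. The ratio separated all libraries with 4-OHE1 from all those without it.

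All 6 J-domain genes tested rose with 4-OHE1 at 6 h, against 29.4% of all genes, and also on FPKM as deposited, against 20.9%. At 24 h 4 of them rose, against 25.6% of all genes. Dnajb4, a partner of Hsp70, was at 65.3, 48.4 and 40.0 scaled FPKM with LPS+4-OHE1, at 64.7, 65.1 and 67.4 with 4-OHE1, at 14.6, 12 and 15.3 with LPS, and at 13.9, 14.8 and 13.8 in the control at 6 h. By 24 h it was at 20.2, 18.2 and 20.5 with LPS+4-OHE1, at 15.1, 12.3 and 14.9 with 4-OHE1, at 9.04, 7.68 and 11.4 with LPS, and at 10.9, 10.8 and 10.0 in the control. The LPS and control libraries overlapped at both times after scaling, but on FPKM as deposited LPS lay below the control without overlap, by differences of -0.68 at 6 h and -0.52 at 24 h (limma, adjusted p = 0.00027 and 0.0014). The 4-OHE1 difference was 2.18 ± 0.14 at 6 h and 0.39 ± 0.12 at 24 h (log2, SE), and the second call was lost without control replicate 3, 4-OHE1 replicate 1 or 4-OHE1 replicate 3 (limma, adjusted p = 0.054 to 0.063).

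Dnajb2, whose products bind ubiquitylated Hsp70 clients, was at 16.3, 19.6 and 15.0 scaled FPKM with LPS+4-OHE1, at 14.8, 14.3 and 14.9 with 4-OHE1, at 3.45, 4.56 and 5.43 with LPS, and at 2.72, 3.28 and 3.47 in the control at 6 h. Every library with 4-OHE1 was above 14 and every other was below 6. It rose by 2.06 ± 0.14 with 4-OHE1 at 6 h and by 1.12 ± 0.17 at 24 h (log2, SE). Dnaja1, the main farnesylated J-domain partner of Hspa8, rose by 1.39 ± 0.10 and Dnajb1, the Hsp40 best known from heat shock, by 1.11 ± 0.09 with 4-OHE1 at 6 h. LPS raised Dnaja1 by 0.95 ± 0.10 at 6 h. An exon of Smu1 on the opposite strand overlaps Dnaja1 by 608 bases.

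Dnaja2 and Dnajb6 stood apart from the other J-domain genes tested because LPS raised them more than 4-OHE1 did at 6 h. Genes of other classes shared this trait on scaled FPKM. For example, the ratio of means to the control for Stip1 was 2.06 with LPS and 1.16 with 4-OHE1. Dnaja2, a second partner of Hspa8, was at 166, 154 and 131 scaled FPKM with LPS+4-OHE1, at 96.0, 101 and 102 with 4-OHE1, at 181, 174 and 176 with LPS, and at 41.8, 45.6 and 41.1 in the control at 6 h. At 24 h it lay between 35.5 and 46.9 in all 12 libraries. Dnajb6, an inhibitor of aggregation, was at 6.93, 6.64 and 5.56 with LPS+4-OHE1, at 4.94, 5.78 and 5.52 with 4-OHE1, at 10.6, 10.3 and 10.2 with LPS, and at 1.97, 2.08 and 1.83 in the control at 6 h. In both genes the LPS libraries were the highest and the control libraries the lowest, with no overlap between them.

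With LPS at 6 h, Dnaja2 rose by 2.04 ± 0.08 and Dnajb6 by 2.14 ± 0.10, and with 4-OHE1 by 1.21 ± 0.08 and 1.26 ± 0.10 (log2, SE). Both were lower with LPS+4-OHE1 than with LPS, with differences of -0.24 ± 0.08 and -0.66 ± 0.10, but Dnaja2 was at -0.02 on FPKM as deposited (limma, adjusted p = 0.75). The interactions were -1.45 ± 0.11 and -1.92 ± 0.13 (limma, adjusted p = 2.7e-07 and 1.6e-07). At 24 h the 4-OHE1 differences were -0.01 ± 0.07 for Dnaja2 and 0.02 ± 0.12 for Dnajb6 (adjusted p = 0.95 and 0.91). LPS still raised Dnajb6 at 24 h, by 0.74 ± 0.12, whereas Dnaja2 differed by -0.10 ± 0.07 (adjusted p = 0.23), or by -0.45 on FPKM as deposited (adjusted p = 9.4e-05). Dnajb6 overlaps Gm5129 on the opposite strand by 249 exon bases.

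Small heat shock proteins hold unfolded proteins without ATP, and their genes were low throughout. Cryab (αB-crystallin) was at 4.73, 6.35 and 4.35 scaled FPKM with LPS+4-OHE1, at 1.71, 2.86 and 1.56 with 4-OHE1, at 0.426, 0 and 1.33 with LPS, and at 0.663, 0.282 and 0.875 in the control at 6 h. At 24 h it was at 7.67, 12 and 9.29 with LPS+4-OHE1, at 5.03, 7.19 and 6.19 with 4-OHE1, at 1.28, 0.208 and 0.286 with LPS, and at 0.661, 0.337 and 0.526 in the control. Libraries with 4-OHE1 lay above all others at each time, and those with LPS+4-OHE1 were the highest. LPS+4-OHE1 against 4-OHE1 was 1.17 at 6 h (log2), which passed the threshold. That call was lost with a pseudocount of 0.1 (limma, adjusted p = 0.169), with no filter (0.0639) and in 3 of 12 fits without 1 library. At 24 h the difference was 0.61 and missed the threshold. It passed in limma-voom on the recovered reads (0.68, adjusted p = 0.00983) and without LPS replicate 1 (limma, adjusted p = 0.0176). The 2 tables list different Cryab transcripts, so its times were not compared.

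Cryab rose with 4-OHE1 by 1.20 ± 0.39 at 6 h (log2, SE; limma, adjusted p = 0.017, or 0.0725 without control replicate 2 and 0.0721 without 4-OHE1 replicate 2, and 0.0666 with a pseudocount of 0.1) and by 2.72 ± 0.30 at 24 h. Its LPS difference was -0.19 ± 0.39 at 6 h and -0.00 ± 0.30 at 24 h (adjusted p = 0.68 and 0.995). An exon of Hspb2 on the opposite strand overlaps Cryab by 252 bases. Hspb1 (Hsp25) at 24 h had 1.65, 1.56 and 1.93 scaled FPKM with LPS+4-OHE1, 0.967, 1.57 and 1.18 with 4-OHE1, 0, 0.102 and 0 with LPS, and 0, 0.0826 and 0 in the control. That is 53 reads with LPS+4-OHE1, 48 with 4-OHE1, 1 with LPS and 1 in the control. The ratio for 4-OHE1 against control was 44.6, with a 95% counting interval of 7.63 to 1797, and for LPS+4-OHE1 against LPS 42.7, with an interval of 7.34 to 1719. Hspb8, not tested, had 17 reads with 4-OHE1 and 0 in the control at 24 h, at least 5.26-fold higher against a floor of 3 reads over the group. These intervals and the floor cover counting error only.

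Of the BAG genes, Bag3 links Hsp70 clients to autophagy. It was at 101, 111 and 113 scaled FPKM with LPS+4-OHE1, at 101, 103 and 106 with 4-OHE1, at 25, 25.8 and 26.7 with LPS, and at 36.8, 37.9 and 37.5 in the control at 6 h. After 24 h it was at 39.2, 38.9 and 43.1 with LPS+4-OHE1, at 47.2, 47.9 and 44.0 with 4-OHE1, at 23.1, 24.5 and 23.4 with LPS, and at 30.7, 29.996 and 26.9 in the control. Every LPS library lay below every control library at both times, and every library with 4-OHE1 above them. Bag3 rose with 4-OHE1 by 1.45 ± 0.05 at 6 h and 0.66 ± 0.06 at 24 h, and fell with LPS, the differences being -0.53 ± 0.05 and -0.30 ± 0.06 (log2, SE). LPS+4-OHE1 exceeded LPS by 2.05 ± 0.05 at 6 h and by 0.76 ± 0.06 at 24 h. Bag1, a nucleotide exchange factor of Hsp70, lay between 68.2 and 116 scaled FPKM in all 24 libraries. It was higher with LPS than in the control, by 0.25 ± 0.08 at 6 h and 0.35 ± 0.06 at 24 h, but on FPKM as deposited the differences were -0.43 and 0.0014.

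The heat shock factors of the list were Hsf1 and Hsf2. Hsf1 was between 7.21 and 14.3 scaled FPKM in all 24 libraries, with a 4-OHE1 difference of 0.33 ± 0.09 at 6 h (log2, SE), 0.14 on FPKM as deposited (limma, adjusted p = 0.22), and of 0.22 ± 0.11 at 24 h (adjusted p = 0.105). HSF1 protein is regulated largely after translation, so its transcript level is no measure of its activity. Hsf2 was at 16.5, 15.6 and 16 with 4-OHE1 and at 8.30, 8.07 and 8.69 in the control at 6 h, and at 6.6, 5.43 and 7.95 with 4-OHE1 and 7.54, 7.41 and 6.77 in the control at 24 h. The groups were apart at 6 h and overlapped at 24 h. Its differences were 0.90 ± 0.12 at 6 h and -0.13 ± 0.15 at 24 h (adjusted p = 2.3e-05 and 0.505).

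The 6 co-chaperone genes did not all respond alike. Some were above the control mean with either agent at 6 h on scaled FPKM. The ratios of means with 4-OHE1 and with LPS were 1.27 and 1.36 for St13 and 1.31 and 1.51 for Ptges3. For Chordc1 they were 1.54 and 1.14. Of the 6 genes, 3 rose and 2 fell with LPS at 6 h, against 36.5% and 34.7% of all genes. On FPKM as deposited 1 rose and 4 fell, against 16.1% and 68.1%, so the LPS direction depended on the scale for some of them. With 4-OHE1 5 rose and 0 fell, or 3 and 0 as deposited, against 29.4% and 30.8%, or 20.9% and 44%, of all genes. The other co-chaperone genes, Ahsa1, Stip1 and Fkbp4, are described here by library. Ahsa1, which speeds the ATPase of Hsp90, was at 238, 271 and 256 scaled FPKM with LPS+4-OHE1, at 178, 181 and 171 with 4-OHE1, at 89.0, 96.6 and 88.8 with LPS, and at 123, 122 and 127 in the control at 6 h. By 24 h the gene was at 85.0, 91.9 and 95.8 with LPS+4-OHE1, at 98.5, 111 and 98.4 with 4-OHE1, at 67.2, 67.6 and 58.5 with LPS, and at 130, 134 and 139 in the control. With 4-OHE1 the libraries were above the control at 6 h and below it at 24 h, and with LPS they were below it at both times. The 4-OHE1 difference was 0.51 ± 0.06 at 6 h and -0.39 ± 0.07 at 24 h, and the difference between the times was -0.90 ± 0.09 (log2, SE; limma, adjusted p = 8.3e-08). The LPS differences were -0.44 ± 0.06 and -1.06 ± 0.07. The interaction was 0.96 ± 0.08 at 6 h and 0.88 ± 0.10 at 24 h, so that LPS+4-OHE1 was the highest group at 6 h although LPS alone was the lowest.

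Stip1, which hands clients from Hsp70 to Hsp90, was at 73.6, 72.4 and 76.6 scaled FPKM with LPS+4-OHE1, at 53.1, 55.2 and 51.4 with 4-OHE1, at 95.8, 96.8 and 91.4 with LPS, and at 44.3, 45.6 and 48.1 in the control at 6 h. It was highest with LPS, by 1.03 ± 0.05 over the control (log2, SE). LPS+4-OHE1 differed from LPS by -0.35 ± 0.05, or by -0.13 on FPKM as deposited, which missed the threshold (limma, adjusted p = 0.084). Fkbp4, the FK506-binding protein of steroid receptor complexes, was at 30.6, 34.2 and 35.2 with LPS+4-OHE1, at 31.5, 31.9 and 33.7 with 4-OHE1, at 19.2, 21.6 and 17.9 with LPS, and at 33.2, 29.8 and 31.5 in the control at 6 h. Only the LPS libraries stood apart. The LPS difference was -0.68 ± 0.08 at 6 h and -0.72 ± 0.08 at 24 h, and the 4-OHE1 differences were 0.04 ± 0.08 and -0.15 ± 0.08 (adjusted p = 0.70 and 0.15).

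The 8 TRiC subunit genes were even in level, the highest being 1.54 to 2.14 times the lowest within any library. Exons of other genes on the opposite strand overlap Tcp1 by up to 571 bases, Cct6a by 452, Cct7 by 214 and Cct8 by 192. At 6 h, 5 of the 8 rose with 4-OHE1, by at most 0.37 (Cct3), where 29.4% of all genes rose, but none of these 5 rose on FPKM as deposited, where 2 subunits and 44% of all genes fell. At 24 h, 3 of the 8 rose and 0 fell with 4-OHE1, by at most 0.37, against 25.6% and 26.8% of all genes. These 3 also rose on FPKM as deposited, where 4 rose and 0 fell, against 29.9% and 23.1% of all genes. All 8 rose with LPS at both times, where 36.5% of all genes rose at 6 h and 35.3% at 24 h, by 0.46 to 0.91 at 6 h and by 0.25 to 1.43 at 24 h (log2), but on FPKM as deposited the range was -0.22 to 0.23 at 6 h, with 1 higher and 3 lower, and -0.10 to 1.08 at 24 h, with 2 higher. On that scale 16.1% of all genes were higher and 68.1% lower with LPS at 6 h, and 19.9% and 53.5% at 24 h. As a share of all FPKM in a library, the 8 genes took 0.190% ± 0.00222 with LPS and 0.215% ± 0.00733 in the control at 6 h, and 0.172% ± 0.00655 with LPS and 0.191% ± 0.00386 in the control at 24 h (SD, n = 3 each). So whether these genes were higher or lower with LPS depended on the scale.

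Cct3 departed from the other subunits. It was at 110.4, 124 and 114 scaled FPKM with LPS+4-OHE1, at 90.2, 87.8 and 76.7 with 4-OHE1, at 128, 122 and 121 with LPS, and at 66.4, 64.7 and 65.7 in the control at 6 h. After 24 h the gene stood at 99.9, 107 and 97.4 with LPS+4-OHE1, at 69.9, 81.5 and 72.5 with 4-OHE1, at 153, 165 and 152 with LPS, and at 56.3, 58.0 and 58.7 in the control. At 24 h the 4 groups did not overlap and LPS was highest. LPS raised it by 0.91 ± 0.07 at 6 h and 1.43 ± 0.06 at 24 h, and the difference between the times was 0.52 ± 0.09 (log2, SE; limma, adjusted p = 5.2e-05). LPS+4-OHE1 minus LPS was -0.62 ± 0.06 at 24 h. Of the 8 subunits, 5 were lower with LPS+4-OHE1 than with LPS at each time. The share of all genes that were lower was 34.8% at 6 h and 25.4% at 24 h. On FPKM as deposited 2 subunits were higher and 1 lower at each time. On that scale 42.7% of all genes were higher and 25.3% lower at 6 h, and 39.5% and 14.9% at 24 h. Cct4 at 6 h (-0.48 ± 0.05) was the subunit that fell under both scales at that time, as Cct3 did at 24 h.

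**Figure D4:**
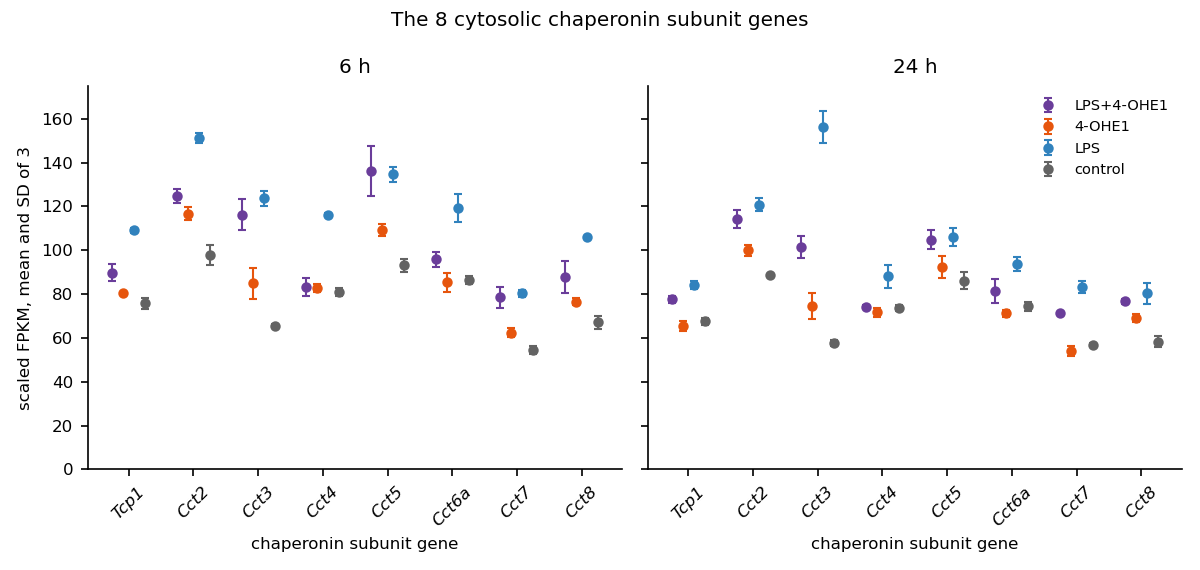
Scaled FPKM of the 8 TRiC subunit genes at 6 h and 24 h (mean and SD of 3 libraries per group). LPS gives the highest mean for 7 of 8 subunits at 6 h and for all 8 at 24 h, where the Cct3 libraries reach 152 to 165.

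The 4-OHE1 response differed between the times. Of 33 genes that could be compared, 17 had a lower 4-OHE1 effect at 24 h than at 6 h and 1, Hspa1b, a higher one (lost in 17 of the 24 fits that each left out 1 library), against 25.5% and 21.8% of all 11163 genes tested (12 and 9 on FPKM as deposited, against 16.6% and 37%). The largest falls in effect were -1.79 ± 0.20 for Dnajb4, -1.24 ± 0.15 for Dnajb6, -1.22 ± 0.11 for Dnaja2, -1.13 ± 0.13 for Hspa8 and -1.03 ± 0.20 for Hsf2 (log2, SE; limma, adjusted p = 0.00021 or lower). Hsp90aa1 (-0.94 ± 0.11), Bag3 (-0.79 ± 0.08) and Hsph1 (-0.51 ± 0.10) also had smaller effects at 24 h. The summed Hspa1a and Hspa1b went the other way, by 0.76 ± 0.24 (adjusted p = 0.013), but not past the threshold in limma-voom on the recovered reads (1.10, adjusted p = 0.25).

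**Figure D5:**
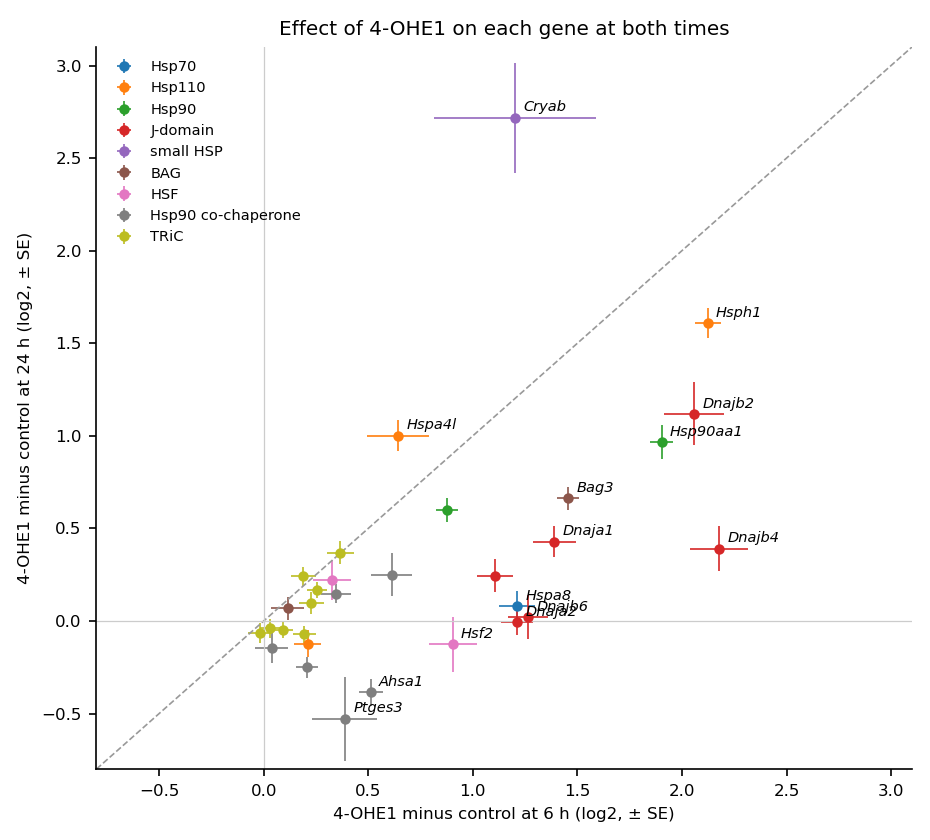
Log2 difference of 4-OHE1 from the control at 24 h (vertical) against that at 6 h (horizontal) for the genes tested at both times except Hspa1a and Hspa1b, which lie outside the range (bars are ± SE, the dashed line marks equal effects). Most labelled genes lie below the line, with Hspa8, Dnaja2 and Dnajb6 near 0 at 24 h; Cryab, whose tables use different transcripts, lies above it.

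The LPS effect was lower at 24 h than at 6 h for 11 of 33 genes and higher for 4, against 28.4% and 24% of all genes (5 and 14 on FPKM as deposited, against 16.9% and 41.7%). Dnaja2 (-2.14 ± 0.11), Hspa1b (-1.78 ± 0.24) and Dnajb6 (-1.40 ± 0.15) had the largest falls beside Hspa1a (-0.75 ± 0.28), and Hsph1 the largest rise (log2, SE). In limma-voom on the recovered reads the falls of Hspa1b and Hspa1a missed the threshold (adjusted p = 0.10 and 0.67). The Hspa1a fall was also lost on FPKM as deposited (-0.44, adjusted p = 0.206), with a pseudocount of 0.1 (adjusted p = 0.0692) and with no filter (adjusted p = 0.0577). It was lost too without any one of control replicates 1 and 2 or LPS replicates 1 and 2 at 6 h, and of control replicate 3 or LPS replicate 1 at 24 h (adjusted p = 0.0513 to 0.0908).

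Interactions of LPS and 4-OHE1 at 6 h were negative for 17 of 33 genes and positive for 4, against 28.9% and 24.8% of all genes (5 and 11 on FPKM as deposited, against 15.2% and 45.5%). The positive ones were Ahsa1 (0.96 ± 0.08), Hsph1 (0.80 ± 0.09), Fkbp4 (0.72 ± 0.11) and Bag3 (0.59 ± 0.08), which were also the 4 genes lower with LPS alone. This match is partly built in, since the interaction subtracts the difference of LPS from control, measured in the same libraries. At 24 h 14 of 34 were negative and 3 positive, against 22.2% and 21.2% of all genes (6 and 4 on FPKM as deposited, against 15.7% and 27.6%), with Hspa1b (-1.43 ± 0.28), Hspa1a (-1.28 ± 0.31), Hsph1 (-1.02 ± 0.12) and Cct3 (-0.99 ± 0.09) lowest (log2, SE). The Hspa1a interaction at 24 h was lost in limma-voom on the recovered reads (-2.28, adjusted p = 0.131). Against 4-OHE1 alone, LPS+4-OHE1 had 18 of 33 genes higher and 1 lower (Dnajb4, lost in 9 of 12 fits that each left out 1 library) at 6 h, against 19.7% and 19.3% of all genes, with 8 and 11 on FPKM as deposited, against 10.1% and 50.2%. At 24 h 14 of 34 were higher and 2 (Fkbp4 and Bag3, the second lost in 4 of 12 such fits) lower, against 22.2% and 22.7% of all genes, with 5 and 10 on FPKM as deposited, against 12% and 44.3%.

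Other genes of the same pathways came from lists that exclude the 36. Of all genes tested at 6 h, 29.4% rose and 30.8% fell with 4-OHE1, and 36.5% rose and 34.7% fell with LPS (20.9% and 44%, and 16.1% and 68.1%, on FPKM as deposited). Of 6 other heat-induced genes, 5 rose and 0 fell with 4-OHE1 at 6 h (3 and 0 on FPKM as deposited), among them the polyubiquitin gene Ubb (1.81 ± 0.05) and Ier5 (2.12 ± 0.07), an HSF1 partner (log2, SE). At 24 h 3 rose and 1 fell, against 25.6% and 26.8% of all genes, with Ubb at 0.79 ± 0.07. Of 16 tested genes of the wider Hsp70 system, 8 rose and 4 fell with 4-OHE1 at 6 h (3 and 7 on FPKM as deposited), Hspa2 by 0.80 ± 0.15, with Bag4 at -0.77 ± 0.13. Of 12 further Hsp90 co-chaperones 6 rose and 1, Fkbp5 (-0.87 ± 0.09), fell (2 and 4 on FPKM as deposited). Of 8 prefoldin and chaperonin helper genes 3 rose and 0 fell (0 and 1 on FPKM as deposited). With LPS at 6 h, 3 of the 6 heat-induced genes rose, 7 of the 16 Hsp70 system genes rose and 6 fell, 5 of the 12 co-chaperones rose and 2 fell, and 6 of the 8 helpers rose and 1 fell. On FPKM as deposited these counts were 2 and 2, 0 and 13, 2 and 8, and 1 and 4.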

How the data were processed

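Messenger RNA libraries, 24 in 8 groups of 3, were analysed. The mouse build mm10 and the tools STAR, HOMER, edgeR and DESeq2 are named per the submitters' processing notes; their versions are not given in the sources used here. The authors deposited, per the file headers, FPKM values from HOMER, as exon reads of 1 transcript per gene over its length and the library's depth, with no scaling between libraries. The authors' deposited comparison tables, with log2 fold changes and adjusted p-values for 4 comparisons, served only as an alternative. Every value checked was a whole number of reads within 0.1 read. The depths of the LPS+4-OHE1 libraries were not given and were estimated as those that made their low values whole reads. For these libraries the check was therefore not independent.

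FPKM was divided by median-of-ratios factors from 11096 genes above 0 in all 24 libraries and tested as log2(scaled FPKM + 0.5) with limma 3.58.1 in R 4.3.3 (empirical Bayes trend), for genes at 1 scaled FPKM or more in at least 3 of the 12 libraries of a time. These 12 shared one fit, and time differences came from a fit of all 24 on genes with the same transcript in both tables. "Rose", "fell", "higher" and "lower" mean Benjamini-Hochberg adjusted p under 0.05 over all genes, and "as deposited" means no scaling. The pseudocount understates changes of low genes. The fit was tested on simulated data. Exon overlaps and shared windows came from GENCODE M21, promoters from RefSeq GRCm38.p6. Genes with values per library were the called ones with the largest differences (up to 6 each way per comparison), both Hspa1 genes, and others chosen after their values were seen. The members and lists were chosen with earlier results of these data known. Alternatives were no scaling, pseudocounts of 0.1 and 1, no filter and a filter of 5 FPKM, robust empirical Bayes, a replicate block, limma-voom on recovered reads (added after seeing the data) and each library left out.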

Additional observations from a re-analysis of the deposited data

Results flagged for a closer look

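Effects that differed between 6 h and 24 h, by a test of the difference itself (limma, adjusted over all genes tested), are given as 24 h minus 6 h on the log2 scale. For 4-OHE1 against control they were -1.79 for Dnajb4, -1.24 for Dnajb6, -1.22 for Dnaja2, -1.13 for Hspa8 and -1.03 for Hsf2, and 0.76 for summed Hspa1a and Hspa1b. For LPS against control they were -2.14 for Dnaja2, 1.79 for Hsph1, -1.78 for Hspa1b, -1.40 for Dnajb6, -0.75 for Hspa1a and -1.42 for summed Hspa1a and Hspa1b. Groups of 3 libraries are too small for the check on single outlying libraries, so none was made.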

How the results depend on the processing

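Scaling was the choice that moved most counts. Without it the calls of all genes shifted too, for example to 16.1% higher and 68.1% lower with LPS at 6 h, so the counts below are to be read against the shares of all genes given with each comparison. On FPKM as deposited the counts of genes higher and lower were 19 and 2 for 4-OHE1 against control at 6 h, 7 and 16 for LPS at 6 h, 12 and 7 for LPS at 24 h, 23 and 2 for LPS+4-OHE1 against LPS at 6 h and 18 and 2 at 24 h, 8 and 11 for LPS+4-OHE1 against 4-OHE1 at 6 h and 5 and 10 at 24 h, 11 and 5 for the interaction at 6 h and 4 and 6 at 24 h, 9 and 12 for the time difference of 4-OHE1, and 14 and 5 for that of LPS. With LPS at 6 h it turned Hspa8 to -0.38, Hsp90aa1 to -0.10 and Hsp90ab1 to -0.018, at 24 h Stip1 to -0.0023, and Bag3 in LPS+4-OHE1 against 4-OHE1 at 6 h to -0.21.

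The single gene lower with LPS+4-OHE1 than with 4-OHE1 at 6 h, Dnajb4, was lost with no filter (0) and with the replicate block (0), and leaving out 1 library gave 0 to 3. At 24 h that count ran from 1 to 5, and the count lower with LPS at 24 h from 3 to 5 (5 without LPS replicate 3). The count of higher time differences of 4-OHE1, 1, was 3 with a pseudocount of 0.1, 0 with 1, 0 with no filter, 2 with a filter of 5 FPKM and 0 to 2 without 1 library. The sum of Hspa1a and Hspa1b in LPS+4-OHE1 against 4-OHE1 at 24 h was -0.62 on FPKM as deposited and ran from -0.66 to -0.19 without 1 library. In limma-voom its time differences were 1.10 for 4-OHE1 and -1.34 for LPS, both past no threshold. The cause was not tested.

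Replicate numbers showed little sign of pairing the libraries: deviations of same-numbered libraries correlated between -0.14 and 0.29, over 0.1 in 2 of 36 pairs. Those 2 were LPS with 4-OHE1 at 24 h, replicates 2 and 3 (0.29 and 0.28). With 3 libraries per group these correlations cannot settle whether libraries were paired. The replicate block changed no other count by over 1.5 times. Of 70 named results with a deposited comparison, 69 were on the same side there, the other being Ptges3 with 4-OHE1 at 24 h. Single low genes are limited by depth: the control values of Hspa1a and Hspb1 rest on few reads.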
